A study of Mus musculus with 21 samples.

Results

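Control lungs of 2 inbred mouse strains, A/J and C3H/HeJ, were compared on 4 Affymetrix arrays. These are the arrays titled as controls of the 2 strains, out of 21 arrays in the series. Each strain had 1 pool of males and 1 pool of females (n = 2 pools per strain). Each array held total RNA of the whole right lung, pooled over 3 to 5 mice. The sources used here do not say what the control mice received, how old they were or how many mice each single pool held. For the same strain comparison in other mice, 6 A/J pools and 4 C3H/HeJ pools were used from lungs taken 3 or 6 weeks after bleomycin, a chemotherapy drug that cuts DNA and can scar the lung. Male pools of both strains had received 100 and female pools 125 mg/kg by osmotic minipump, apart from an A/J male pool at 80 and an A/J female pool at 100 mg/kg. Lungs of 2 control pools of C57BL/6, again 1 male and 1 female, were set beside them as the third strain. By its title the study asked how mouse strains differ in their pulmonary response to this drug, and the control arrays show where they already differed without it.

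A/J and C3H/HeJ are old inbred strains, and each animal of a strain is homozygous at nearly every locus. Known differences between them include the major histocompatibility complex, or H-2: A/J carries the recombinant a haplotype, with k alleles on the K and class II side and d alleles on the D side, while C3H/HeJ carries k alleles throughout and C57BL/6 carries b alleles. A/J lacks functional complement component C5, encoded by Hc, and carries an insertion in the dysferlin gene Dysf. C3H/HeJ carries a defective coding allele of Tlr4, the receptor for bacterial lipopolysaccharide. Short oligonucleotide arrays read a transcript through several probes that make up a probe set. A base difference under a probe can lower its signal with no change in the amount of RNA, so several probe sets of the same gene were read against each other wherever the array held them.

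Levels are given as log2 of the quantile-normalized intensity plus 16, on which an intensity of 0 lies at 4. A difference of 1 is a doubling at high signal and understates the change of dim genes. Differences are A/J minus C3H/HeJ, each with its SE from a limma model with terms for group and sex, and a call is a Benjamini-Hochberg adjusted p under 0.05 over all 15084 probe sets kept. Each pool is a separate sample, but p-values measure only the spread between such pools. In whole lung, fewer cells of a type and less RNA per cell cannot be told apart.

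The deposited medians of the 4 arrays ran from 82.8 to 98.8. The ratio of 3′ to 5′ control probe sets, a sign of RNA quality, was higher in A/J than in C3H/HeJ: 1.34 and 1.09 against 1.04 and 0.917 for Gapdh, and 1.26 and 1.12 against 1.11 and 1.09 for actin. Its part in the strain differences was not tested. Across probe sets the log2 values correlated at 0.972 between the A/J arrays and at 0.978 between the C3H/HeJ arrays, against 0.958 to 0.964 between strains. Defining lung markers were high and alike: the surfactant gene Sftpc lay between 12.67 and 12.82, the club cell gene Scgb1a1 between 12.67 and 12.74 and the type 1 cell gene Ager between 11.84 and 11.95. Xist, expressed from the inactive X chromosome, lay at 6.92 and 7.17 in the male pools and at 11.37 and 11.39 in the female pools of A/J and C3H/HeJ.

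Of the 15084 probe sets, 152 passed (1.01%), 66 higher in A/J (0.438%) and 86 higher in C3H/HeJ (0.57%), and 993 had an unadjusted p under 0.05. The smallest called difference was 0.519 and the median size was 1.19, and 98 were at least 2-fold. None of the 152 had overlapping strains, although 6330 of all probe sets (42%) also had strains that did not overlap. Read by the brightest probe set of each gene, 84 of 9076 genes passed (0.926%), 38 higher in A/J (0.419%) and 46 higher in C3H/HeJ (0.507%). The count fell to 68 to 75 when any 1 of the 4 control arrays was left out: 68 without the A/J male, 75 without the A/J female, 71 without the C3H/HeJ male and 75 without the C3H/HeJ female array. On the deposited values, without scaling between arrays, 68 passed, 30 higher in A/J and 38 in C3H/HeJ. With only the 4 control arrays in the fit, 119 passed.

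The largest differences were in class I histocompatibility genes, which encode the cell-surface molecules that show peptides to cytotoxic T cells. All 8 kept probe sets of H2-D1, the class I gene of the D side, were called, 7 higher in A/J and 1 higher in C3H/HeJ. The brightest, 1425545_x_at, read 12.08 on both A/J arrays and 8.50 and 8.68 in C3H/HeJ males and females, a difference of 3.49 (SE 0.16, adjusted p = 5.4e-10). The C57BL/6 arrays read 12.02 and 11.98 there, as high as A/J. The opposite reading came from 1450170_x_at, with 6.30 and 6.19 in A/J against 10.15 and 10.18 in C3H/HeJ (difference −3.92, SE 0.23, adjusted p = 1.5e-08), while C57BL/6 lay at 5.62 and 5.50.

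The 8 probe sets of H2-D1 fell into 3 patterns over the strains. In 4 of them (1425545_x_at, 1451784_x_at, 1451683_x_at and 1426324_at) A/J and C57BL/6 were alike and C3H/HeJ was lower, by 2.42 to 4.81 against A/J. In 3 others (1425614_x_at, 1427651_x_at and 1452544_x_at) A/J was high and both other strains were low: 1425614_x_at read 11.58 and 11.62 in A/J, 5.76 and 5.48 in C3H/HeJ and 5.06 on both C57BL/6 arrays. Its difference of 5.99 (SE 0.20, adjusted p = 6.6e-12), a 63.4-fold ratio on this scale, was the largest of the 15084. Only 1450170_x_at was high in C3H/HeJ alone. Most of these names end in _x_at, which marks probe sets that may also match other transcripts, such as those of related class I genes.

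**Figure D1:**
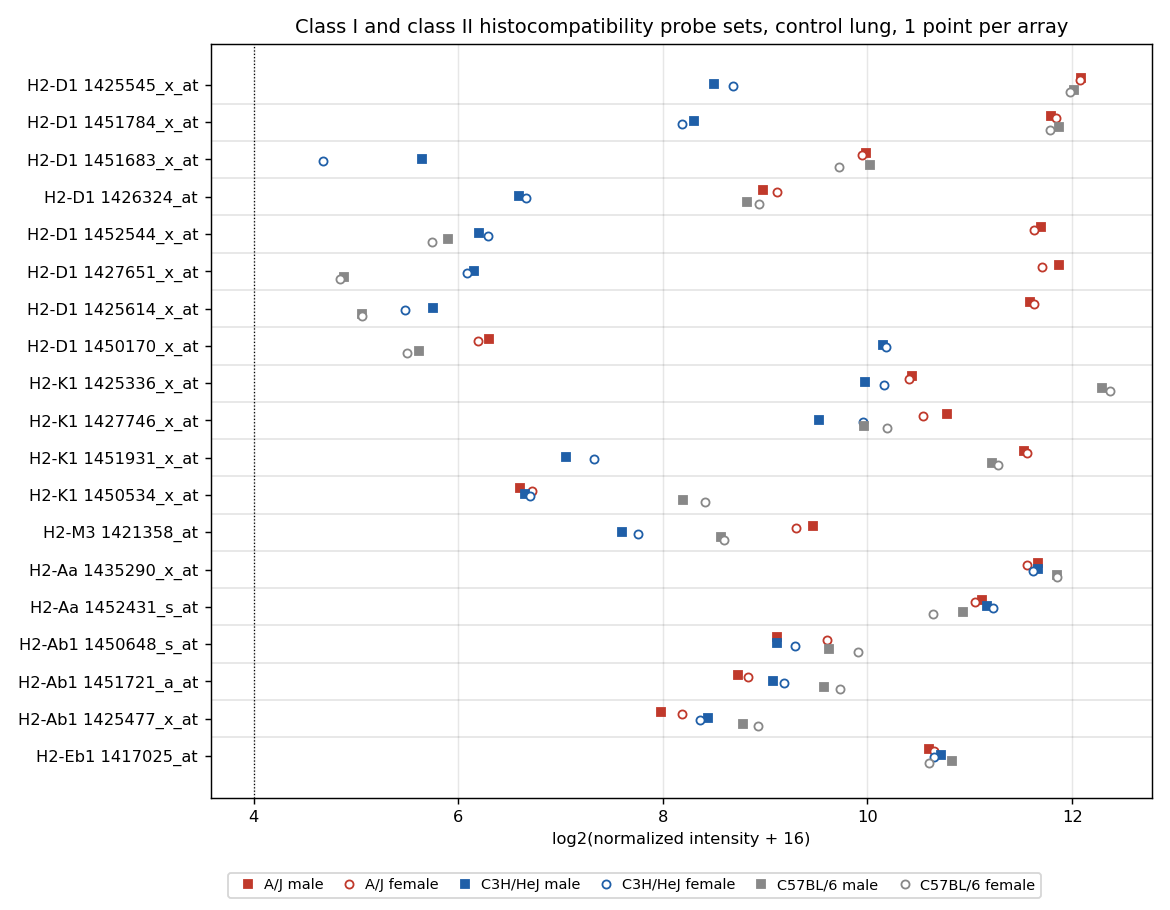
Levels of class I (H2-D1, H2-K1, H2-M3) and class II (H2-Aa, H2-Ab1, H2-Eb1) probe sets in control lung, as log2(normalized intensity + 16) on the horizontal axis. Each row is a probe set and each point an array (squares male, open circles female; red A/J, blue C3H/HeJ, grey C57BL/6; the dotted line at 4 is an intensity of 0). The H2-D1 probe sets place C3H/HeJ far below A/J in 7 rows and far above in 1, while the class II rows place A/J and C3H/HeJ side by side.

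H2-K1, the class I gene of the K side, showed a called difference in 1 of 4 probe sets. Its brightest, 1425336_x_at, read 10.43 and 10.40 in A/J and 9.98 and 10.16 in C3H/HeJ (difference 0.35, SE 0.20, adjusted p = 0.94), below the 12.29 and 12.37 of C57BL/6. In contrast 1451931_x_at read 11.52 and 11.56 in A/J, 7.06 and 7.33 in C3H/HeJ and 11.21 and 11.28 in C57BL/6 (difference 4.35, SE 0.22, adjusted p = 2e-09). The disagreement between these probe sets, had an SE of 0.24 and passed its own test (adjusted p = 4e-08). In the files' annotation both carry the H2-K1 symbol.

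The promoters of H2-K1 and H2-D1 are shown because both genes gave probe sets that differed between the strains and probe sets that did not go the same way, and because the pair is closely related in sequence. The windows hold the 250 bases before the annotated start in the RefSeq GRCm38.p6 assembly, which is C57BL/6J sequence and so that of neither strain compared. H2-K1 lies at chr17:34000348-34000597 on the minus strand and H2-D1 at chr17:35262844-35263093 on the plus strand. RefSeq lists 2 starts for H2-K1, of which the first in the table is shown. Capitals mark GGATTCC, the core of the class I enhancer A, the core of an interferon regulatory factor element (AANNGAAA, here on the other strand) and the CCAAT box, each searched on both strands with no overlap here.
H2-K1: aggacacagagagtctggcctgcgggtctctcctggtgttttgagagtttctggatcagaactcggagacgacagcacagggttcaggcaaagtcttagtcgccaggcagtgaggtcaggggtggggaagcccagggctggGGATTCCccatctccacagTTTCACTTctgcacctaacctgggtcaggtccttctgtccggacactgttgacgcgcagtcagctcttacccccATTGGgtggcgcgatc
H2-D1: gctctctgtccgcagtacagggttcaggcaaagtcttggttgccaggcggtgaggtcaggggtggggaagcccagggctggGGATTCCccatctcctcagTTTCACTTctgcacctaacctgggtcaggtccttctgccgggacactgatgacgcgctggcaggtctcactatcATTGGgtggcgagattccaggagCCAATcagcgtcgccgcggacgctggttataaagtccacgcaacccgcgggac
Over their aligned stretch of 177 bases the windows were identical at 161 (91.0%). Both hold GGATTCC at 1 place, which 1041 of 32851 windows of this length hold (3.17%), and 1 AANNGAAA core, which 21.3% hold. CCAAT was found at 1 place in the H2-K1 window and at 2 in that of H2-D1, and in 33.8% of all windows.

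Of the other genes of the complex, few were called. The nonclassical class I gene H2-M3, which presents bacterial formylated peptides, was higher in A/J, with 9.46 and 9.30 against 7.60 and 7.76 (difference 1.70, SE 0.16, adjusted p = 7.2e-06). C57BL/6 lay between them at 8.57 and 8.60. On the S and D side, read by the brightest probe set, 2 of 34 tested genes were higher in A/J, H2-D1 and H2-M3, and none in C3H/HeJ. Over all 9076 genes, 38 (0.419%) were called higher in A/J. Of the 34, 6 (17.6%) had an unadjusted p under 0.05, against 620 of all 9076 genes (6.83%), and their median difference was −0.05, against 0.02 over all genes. The tenascin gene Tnxb read 7.60 and 8.64 in A/J against a C3H/HeJ mean of 6.97 (1.15, SE 0.27, adjusted p = 0.056). Of 19 genes on the K and class II side, each read by its brightest probe set, none passed, none had an unadjusted p under 0.05, and the median was 0.05. Over all their 29 probe sets 1 passed, the H2-K1 probe set 1451931_x_at. The class II chains that show peptides to helper T cells read near the same level: H2-Aa differed by −0.03 (SE 0.19), H2-Ab1 by 0.16 (SE 0.33) and H2-Eb1 by −0.06 (SE 0.24). In a list of 15 class II presentation and costimulation genes none passed either.

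Probe sets of the same gene disagreed on the strain difference in few genes. Of 4785 pairs, each of a gene's brightest probe set with another, 19 passed (0.397%), in 13 genes, and 231 had an unadjusted p under 0.05. Besides H2-D1 with 5 pairs and H2-K1, these were Pdxdc1, Lin7c, Uqcr10, Psmd6, Arap3, Nectin3, Mrpl41, Ywhaq, Mau2, Tsc22d1 and Cd99. The count was 12 without the A/J male array and 11 without the C3H/HeJ male array. Without probe sets whose names mark possible cross-matches it was 8, in 7 genes. All 19 pairs also passed in the treated lungs, where 80 of 4785 passed (1.67%). That test used the same fit and its shared estimate of spread.

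Pdxdc1, which encodes a pyridoxal-dependent decarboxylase domain protein, was called in both directions. 1452705_at read 8.87 and 8.71 in A/J against 6.25 and 6.30 in C3H/HeJ (2.51, SE 0.15, adjusted p = 1.5e-08). 1419327_at read 6.12 and 6.05 against 9.26 and 9.35 (−3.22, SE 0.25, adjusted p = 4.4e-07). The remaining probe sets lay at 0.99 and 1.02 and did not pass. Of the opposed pair, C57BL/6 was near A/J on both, with 8.63 and 8.43 on the first and 6.55 and 6.22 on the second.

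In 4 further genes a bright probe set read nearly the same level in the strains while another read a large difference. Psmd6, a subunit of the proteasome's regulatory particle, differed by 0.00 (SE 0.15) on 1423697_at and by 2.34 (SE 0.21, adjusted p = 3.8e-06) on 1423696_a_at. Uqcr10, a subunit of respiratory complex III, differed by 0.00 (SE 0.18) on 1424364_a_at and by −2.59 (SE 0.26, adjusted p = 1.5e-05) on 1434340_at, where A/J lay near the floor at 4.42 and 4.29. Mrpl41, a mitochondrial ribosomal protein, differed by −0.01 and −1.59, and Tsc22d1, a leucine zipper protein, by 0.04 on its brightest and by −1.09 and −1.01 on others. In each of these genes C57BL/6 lay on the side of the strain with the higher reading of the differing probe set.

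In other genes the call was on both probe sets of a pair by unlike amounts, on the brightest alone, or on others than the brightest. Lin7c, a polarity scaffold, was higher in A/J by 0.68 (SE 0.15, adjusted p = 0.032) on its brightest and by 3.70 (SE 0.21, adjusted p = 8.3e-09) on 1423322_at, where C3H/HeJ read 5.08 and 4.76. Arap3, a GTPase-activating protein of the endothelium, was higher in A/J by 1.87 (SE 0.17, adjusted p = 3.2e-06) on its brightest probe set and differed by −0.11 (SE 0.26) on the other. Ywhaq, the 14-3-3 theta protein, was read by 7 probe sets: the 4 with sizes up to 0.26 did not pass, and 3 others were higher in C3H/HeJ, with differences of −1.79, −1.34 and −1.21. Nectin3, an adhesion molecule, and Mau2, a cohesin loader, were each called higher in A/J on 1 probe set, by 1.42 and 1.11, and not on their brightest. Probe sequences were not used here, so how many of these rest on bases under the probes was not tested.

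**Figure D2:**
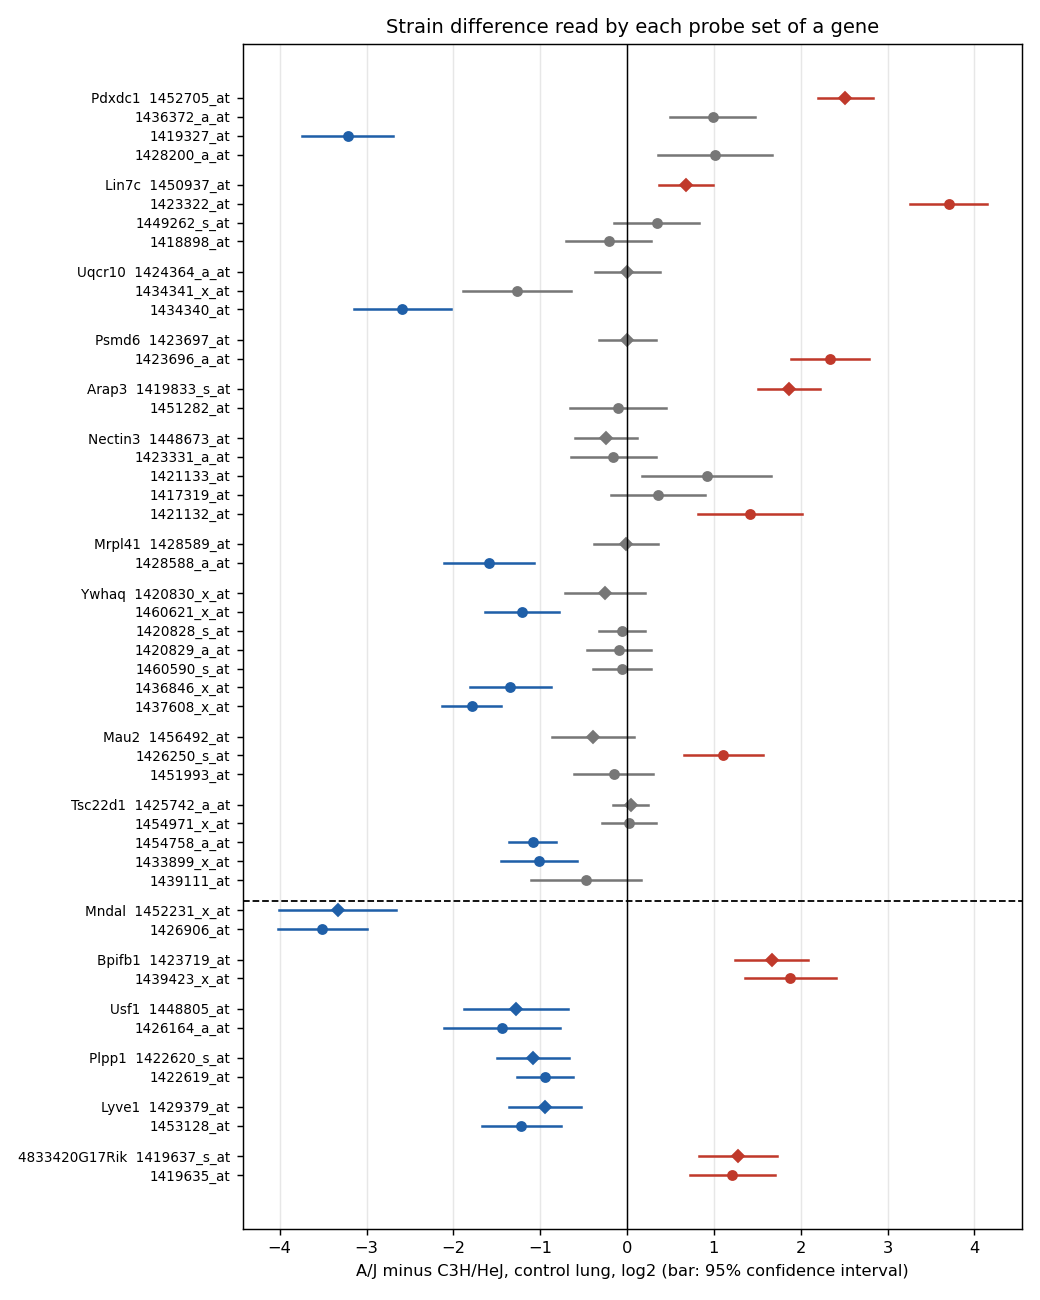
Strain difference in control lung, A/J minus C3H/HeJ in log2 units, for every kept probe set of 16 genes; bars are 95% confidence intervals, diamonds mark the brightest probe set, red and blue mark calls higher in A/J and in C3H/HeJ, and grey marks no call. Above the dashed line are genes whose probe sets disagree, such as Pdxdc1 with 2.51 and −3.22; below it are the 6 genes whose probe sets were all called the same way.

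Of the 110 genes with any called probe set, 52 had a single kept probe set, so that nothing on the array could be read against it. Among the other 58, all probe sets were called the same way in 6. In 30 genes the uncalled probe sets had the same sign as the called, in 20 an uncalled one had the opposite sign, and 2, H2-D1 and Pdxdc1, were called both ways. By name ending, 26 of 1080 _x_at probe sets were called (2.41%) and 98 of 9910 with a plain ending (0.989%). Among the 26 are all called H2-D1 probe sets but 1426324_at, and the H2-K1 probe set 1451931_x_at. A further 23 called probe sets carried several gene symbols (15) or none (8) and are not named.

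The 6 genes with every probe set called the same way were Mndal, Usf1, Plpp1 and Lyve1, higher in C3H/HeJ, and Bpifb1 and 4833420G17Rik, higher in A/J. Mndal, an interferon-inducible nuclear protein of the p200 family, read 4.35 and 5.03 in A/J and 8.06 and 7.98 in C3H/HeJ on its brightest probe set (−3.33, SE 0.32, adjusted p = 6.7e-06). On the other it read 4.34 and 4.15 against 7.65 and 7.85 (−3.51, SE 0.24, adjusted p = 1.2e-07). Both place A/J near the intensity floor, and C57BL/6 read 8.19 to 8.79. Usf1, a helix-loop-helix transcription factor, differed by −1.28 and −1.44, and Plpp1, a lipid phosphatase, by −1.09 and −0.94. Lyve1, a hyaluronan receptor of lymphatic endothelium and some macrophages, differed by −0.95 and −1.22. 4833420G17Rik differed by 1.28 and 1.21.

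Further large differences higher in A/J came from genes of varied function. Xdh, the xanthine dehydrogenase of purine breakdown, read 9.61 and 9.65 in A/J and 7.34 and 7.67 in C3H/HeJ (2.12, SE 0.30, adjusted p = 9.2e-04). Sspn, the sarcospan of the dystrophin complex, read 8.16 and 8.18 against 6.52 and 6.59 (1.61, SE 0.16, adjusted p = 8.8e-06). Adamdec1, a metalloprotease-like protein of the mononuclear phagocyte lineage, read 7.96 and 7.83 against 6.13 and 6.39 (1.63, SE 0.22, adjusted p = 4.5e-04). In these C57BL/6 lay near A/J, between 9.23 and 9.63 for Xdh, 7.84 and 8.13 for Sspn and 7.30 and 7.68 for Adamdec1. Smoc1, a matricellular protein, differed by 1.51 (SE 0.25), Ggcx, the carboxylase of vitamin K-dependent proteins, by 1.37 (SE 0.27) and C920021L13Rik by 1.54 (SE 0.35). All of these genes had a single kept probe set.

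On the C3H/HeJ side, Stk25, a Ste20-like kinase, read 6.33 and 6.58 in A/J and 9.47 on both C3H/HeJ arrays (−3.02, SE 0.22, adjusted p = 2.3e-07). Bst1, a GPI-anchored ADP-ribosyl cyclase, read 4.28 and 4.33 in A/J, near the floor, and 6.94 and 7.23 in C3H/HeJ (−2.78, SE 0.27, adjusted p = 7.8e-06). Hbegf, a ligand of the EGF receptor, read 7.90 and 8.06 against 9.85 and 9.83 (−1.87, SE 0.22, adjusted p = 9e-05). Its other probe set differed by −1.02 (SE 0.26, adjusted p = 0.10). Nme7, a nucleoside diphosphate kinase family member, read 7.33 and 7.30 against 8.87 and 8.96 (−1.60, SE 0.15, adjusted p = 6.7e-06). Procr, the endothelial receptor for protein C, read 5.94 and 5.80 against 7.38 and 7.39 (−1.51, SE 0.24, adjusted p = 0.0029).

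These 5 genes differed in where the third strain lay. Stk25 and Bst1 read near C3H/HeJ in C57BL/6 (9.11 and 9.18, and 6.52 and 6.57), and Hbegf lay between the strains at 9.03 and 9.06. Nme7 and Procr read near A/J in C57BL/6, at 7.31 and 7.44 and at 5.93 and 5.65. Also higher in C3H/HeJ were Gas1, a hedgehog co-receptor, with a difference of −1.38 (SE 0.28), and Pglyrp1, a peptidoglycan-binding protein of neutrophil granules, with −1.37 (SE 0.25). The other Gas1 probe set differed by −0.67 and did not pass. The mTOR inhibitor Deptor, with a difference of −1.55 (SE 0.35), passed at an adjusted p of 0.048 and Ocel1, at −1.37 (SE 0.24), at 0.0066. The 2 other Deptor probe sets did not pass, and the smallest difference of the gene was −0.43.

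**Figure D3:**
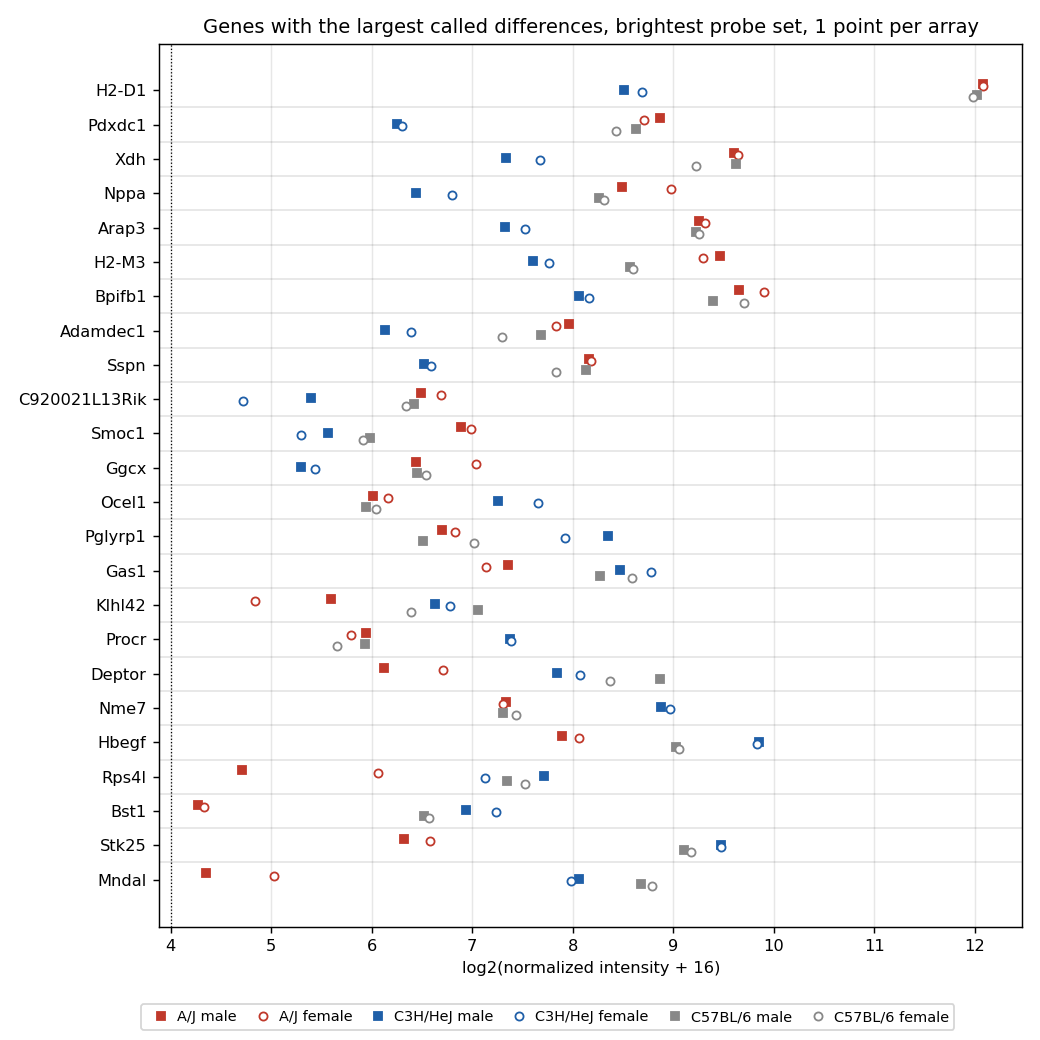
Levels of the 12 genes with the largest called difference in each direction by their brightest probe set, as log2(normalized intensity + 16) on the horizontal axis, with 1 point per control array (squares male, open circles female; red A/J, blue C3H/HeJ, grey C57BL/6; dotted line, intensity 0). The red and blue points do not overlap in any row, and the grey points lie near red in rows such as Xdh and near blue in rows such as Stk25.

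Some called genes were neighbours. Of the 110 genes with a called probe set, 21 (19.1%) had another among the 5 tested genes on either side, against 10.7% of all 9075 placed genes. Rps4l, a ribosomal protein S4-like gene, Klhl42, a ubiquitin ligase adaptor, and Ccdc91 lay together and were all higher in C3H/HeJ, with differences of −2.03, −1.49 and −1.18. Mndal and its neighbour Ifi209, of the same p200 family, went opposite ways, and were the only genes with a called probe set in a list of 14 interferon-inducible GTPases and p200 family genes: 1 of 2 probe sets of Ifi209 was called higher in A/J, by 1.11 (SE 0.26, adjusted p = 0.049), and the brighter 1 differed by 0.32 (SE 0.22). Meox1, Dusp3 and Lsm12 differed by 0.88, −0.87 and −0.98. The other Dusp3 probe set differed by 0.35 and did not pass. Ccdc91, Meox1, Dusp3 and Lsm12 were named after their values were seen.

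Gene lists were read with each gene by its brightest probe set, and 4872 of all 9076 genes (53.7%) stood on the A/J side. Secretory genes of the airway stood there in 20 of 25 tested members. Of the 25, 2 passed, both higher in A/J, against 38 of all 9076 genes (0.419%). Bpifb1, a secreted antimicrobial-type protein of airway gland and goblet cells, read 9.65 and 9.90 in A/J and 8.06 and 8.16 in C3H/HeJ (1.66, SE 0.20, adjusted p = 1e-04). Its other probe set gave 1.88 (SE 0.25, adjusted p = 3.9e-04). Muc5b, the main gel-forming mucin of mouse airways, read 9.12 and 9.04 against 7.75 and 7.73 (1.34, SE 0.18, adjusted p = 3.8e-04). C57BL/6 lay at 9.40 and 9.70 for Bpifb1 and at 8.65 and 8.63 for Muc5b. C3H/HeJ was the low strain of the 3 for both genes. Cxcl17, a chemokine of mucosal epithelium that was named after its values were seen, read 9.86 and 9.93 against 8.77 and 8.45 (1.28, SE 0.17, adjusted p = 3.9e-04).

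Other airway genes stood the same way without passing. The C-type lectin Reg3g read 8.41 and 8.54 in A/J and 7.70 and 6.88 in C3H/HeJ (1.19, SE 0.28, adjusted p = 0.059). The secretoglobin Scgb3a1 read 11.75 and 12.11 against 11.35 and 11.33 (0.59, SE 0.14, adjusted p = 0.073). The trefoil factor Tff2 differed by 1.47 (SE 0.44, adjusted p = 0.23) and lactoferrin, Ltf, by 0.83 (SE 0.24, adjusted p = 0.18). The list's median was 0.17. Abundant club cell genes were alike, with 0.01 for Scgb1a1 and 0.07 for Cyp2f2, and Bpifa1, a secreted protein of the upper airway, differed by −0.38 (SE 0.19). Of 11 ciliated cell genes none passed, with a median of 0.25, and the ciliated cell factor Foxj1 differed by 0.42 (SE 0.27). The summed intensity of the 2 defining airway markers, Foxj1 and Bpifa1, which differed in opposite directions, was 1782 and 2178 in A/J and 2314 and 2442 in C3H/HeJ. The sums of the full lists went the other way. For the 25 airway secretory genes they were 46711 and 49379 in A/J and 43851 and 43533 in C3H/HeJ. For the 11 ciliated cell genes they were 6080 and 6568 against 5942 and 5668. How far the share of airway in each pool entered these differences was not tested.

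Macrophage genes were divided. Of 31 tested, 2 were higher in C3H/HeJ: Mpeg1, a pore-forming protein of macrophages, with 8.54 and 8.94 in A/J against 10.02 and 9.94 (−1.24, SE 0.23, adjusted p = 0.011), and Chil3, the lectin Ym1 of alveolar macrophages, with 9.30 and 9.75 against 10.57 and 10.40 (−0.96, SE 0.21, adjusted p = 0.028). The list's median was −0.06, and over all 9076 genes 46 (0.507%) were called higher in C3H/HeJ. Cd68 was alike at 8.95 to 8.99 on the 4 arrays, while the scavenger receptor Marco stood the other way, with 6.58 and 7.30 in A/J and 5.74 and 6.70 in C3H/HeJ (0.72, SE 0.24, adjusted p = 0.36). The summed intensity of the 31 genes was 28797 and 30237 in A/J and 33034 and 32352 in C3H/HeJ. Its part in the 2 calls was not tested. Chil3 was not called in 8 of 16 alternatives, among them each of the 4 fits that left out a control array.

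Among 36 listed endothelial genes, which include neither Arap3 nor Procr, 2 were higher in C3H/HeJ and none in A/J, and the median was −0.12. Over all 9076 genes, 46 (0.507%) were called higher in C3H/HeJ. Vwf, the von Willebrand factor of endothelium and platelets, read 9.49 and 9.48 in A/J and 10.42 and 10.46 in C3H/HeJ (−0.95, SE 0.12, adjusted p = 3.4e-04), and Lyve1 was the other. The endothelial marker Pecam1 differed by −0.03. Plat, the tissue plasminogen activator, was the only call among 32 matrix protease and inhibitor genes, with 6.96 and 6.84 against 8.20 and 7.88 (−1.14, SE 0.25, adjusted p = 0.030). None of 50 listed collagen and elastic fibre genes passed by their brightest probe set in control lung, 14 of them stood on the A/J side and the median was −0.14. Sparc, a collagen-binding protein, had the smallest p of those on the C3H/HeJ side (−0.37, SE 0.09, adjusted p = 0.060). Lox, the enzyme that cross-links collagen, was called on the dimmer of its probe sets (−1.50, SE 0.29, adjusted p = 0.014) and not on the brighter (−0.67, SE 0.22, adjusted p = 0.30), and was looked at after its values were seen. Col4a6, a basement membrane collagen outside the list and likewise named after its values were seen, was called higher in C3H/HeJ (−0.94, SE 0.18, adjusted p = 0.014).

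Hc, Dysf, Tlr4 and Naip5, genes with known alleles in A/J or C3H/HeJ, were not called in control lung. Hc, the C5 gene, lay at 9.17 and 9.16 in A/J and 10.37 and 10.53 in C3H/HeJ, and the difference of −1.28 (SE 0.35) did not pass in control lung (adjusted p = 0.13). In treated lung it passed, at −1.18 (SE 0.23, adjusted p = 0.0058). C57BL/6 controls read 10.69 and 10.94. None of 24 complement genes passed in control lung. Dysf differed by −0.71 (SE 0.35, adjusted p = 0.80). Tlr4 differed by −0.11 (SE 0.24) and 0.40 (SE 0.29) on its 2 probe sets, and none of 33 genes of lipopolysaccharide sensing and NF-kappaB passed. Naip5, an inflammasome sensor of flagellin with a permissive allele in A/J, differed by −0.59 (SE 0.23, adjusted p = 0.55). The aryl hydrocarbon receptor Ahr differed by 0.05 (SE 0.20).

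Genes of drug and oxidant handling gave few calls in control lung. Blmh, the hydrolase that inactivates bleomycin, read 8.26 and 8.35 in A/J and 8.31 and 8.26 in C3H/HeJ (0.02, SE 0.19, adjusted p = 0.9996). The 95% interval of that difference was −0.38 to 0.41. None of 26 genes of bleomycin hydrolysis and DNA break repair passed. Glo1, the glyoxalase that detoxifies methylglyoxal, was the single call among 44 glutathione and NRF2 genes, with 10.57 and 10.44 against 9.90 and 9.59 (0.76, SE 0.13, adjusted p = 0.0055). Its other probe sets gave 0.64 and 0.61, which did not pass. C57BL/6 was lower than both on the brightest, at 8.54 and 8.57. In that list 33 of 44 members (75.0%) stood on the A/J side, against 53.7% of all genes, with a median of 0.09. None of 34 cytochrome P450, FMO and carboxylesterase genes passed (median 0.11), and 24 (70.6%) stood on the A/J side. In treated lung 6 of the 44 and 3 of the 34 were called higher in A/J and none in C3H/HeJ. Over all 9076 genes, 186 were called higher in A/J there.

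Single calls came from a few other lists. Nppa, the atrial natriuretic peptide, read 8.48 and 8.98 in A/J and 6.44 and 6.79 in C3H/HeJ (2.12, SE 0.42, adjusted p = 0.018), and was the only call among 31 heart and skeletal muscle genes. Of the 31, 21 stood on the A/J side, and the median was 0.23. An unadjusted p under 0.05 was found in 9 of them (29.0%), against 6.83% of all genes. The shares of the erythroid (30.0%) and smooth muscle (28.6%) lists, which gave no call, were near that of the heart and skeletal muscle list. Examples among the 31 that did not pass were Sln at 0.79 (SE 0.19, adjusted p = 0.055), Myl7 at 0.75 (SE 0.21, adjusted p = 0.15) and Actc1 at −0.68 (SE 0.24, adjusted p = 0.39). The summed intensity of the heart markers Myh6, Tnni3 and Myl7 was 2888 and 2326 in A/J and 1512 and 1873 in C3H/HeJ, and its part in the Nppa difference was not tested. Kitl, the ligand of the Kit receptor on mast cells, was higher in A/J by 0.88 (SE 0.17, adjusted p = 0.014) on its brightest probe set and differed by 0.60, 0.31 and −0.16 on the others. It was the only call among the 28 listed chemokines and cytokines, which do not include Cxcl17. The histamine enzyme Hdc differed by 1.10 (SE 0.30, adjusted p = 0.13). Lcn2, an iron-binding neutrophil and epithelial protein, was the only call among the 16 listed neutrophil genes (−0.64, SE 0.13, adjusted p = 0.022), which do not include Pglyrp1.

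Read by the brightest probe set, lists with no call were those of mast cells (6 genes tested), B and plasma cells (19), T and NK cells (21), type 2 (29) and type 1 (17) alveolar cells, smooth muscle (21), the TGF-beta pathway (37), p53 targets (29), the cell cycle (41), adipocytes (24), erythroid cells (10), the clock (17), immediate early genes (34), lung tumour loci (9) and cytosolic ribosomal proteins (34). Their medians ran from −0.16 for immediate early genes to 0.33 for mast cells. In 2 of these lists a dimmer probe set was called: Fabp4, of adipocytes and macrophages, on 1451263_a_at (0.86, SE 0.16, adjusted p = 0.014), and the clock gene Per3 on 1460662_at (−1.50, SE 0.29, adjusted p = 0.014), whose brightest probe set differed by −0.45 (SE 0.30). The immunoglobulin A gene Igha differed by 0.65 (SE 0.27) between the strains, which lay at 10.38 to 11.29, and was lower in both C57BL/6 pools at 8.12 and 7.62. Granzyme A, Gzma, read 7.34 and 7.40 in A/J against 8.30 and 9.21 in C3H/HeJ (−1.39, SE 0.36, adjusted p = 0.11).

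**Figure D4:**
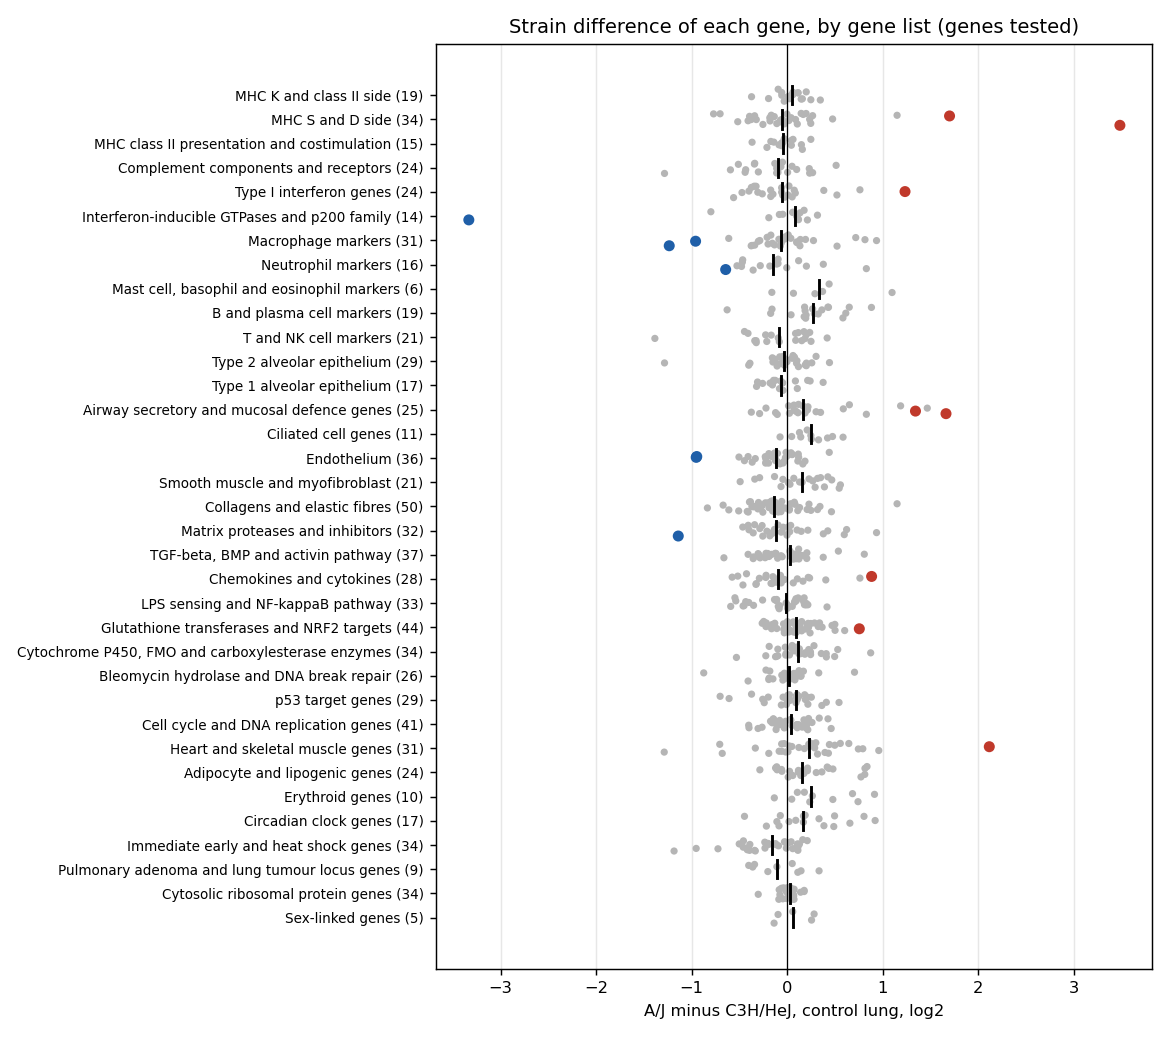
Strain difference in control lung, A/J minus C3H/HeJ in log2 units on the horizontal axis, of each tested gene by list; each point is a gene read by its brightest probe set, black bars are list medians, and large red and blue points are calls higher in A/J and in C3H/HeJ. Most lists centre near 0, the 2 airway calls lie to the right and the 2 endothelial calls overlap near −0.95.

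The strain difference was measured again in treated lung, which shares no array with the controls. Both comparisons came from the same fit and share its estimate of each probe set's spread, so their p-values are not independent. Of the 152 probe sets called in control lung, 150 had the same sign there, against 65.0% of all probe sets, and 132 passed, where 611 of 15084 passed in all (4.05%). H2-D1 1425545_x_at ran from 12.01 to 12.30 over the 6 treated A/J pools, with a median of 12.22, and from 8.24 to 8.90 over the 4 C3H/HeJ pools (difference 3.71, SE 0.10). Mndal ran from 4.44 to 5.31 in treated A/J and from 7.64 to 8.51 in treated C3H/HeJ (−3.17, SE 0.21, adjusted p = 3.4e-08). Xdh ran from 9.61 to 10.11 against 7.10 to 8.54 (2.15, SE 0.20) and Stk25 from 6.31 to 7.08 against 9.18 to 9.41 (−2.74, SE 0.15). Bpifb1 ran from 8.81 to 9.43 against 7.58 to 7.98 (1.37, SE 0.13). None of these ranges overlapped, and these genes are among those with the largest called differences in control lung. The share of all probe sets without overlap in treated lung was not counted. In treated lung 291 probe sets were higher in A/J (1.93%) and 320 in C3H/HeJ (2.12%). Of the 25 airway secretory genes 6 passed there, all higher in A/J, where Reg3g (0.98, SE 0.19, adjusted p = 0.0047), Scgb3a1 (0.58), Ltf (0.74) and Tff2 (1.15) joined the calls. By genes, 370 of 9076 passed there (4.08%), 186 higher in A/J and 184 in C3H/HeJ. Other lists had calls on the C3H/HeJ side in treated lung. These were 10 of 50 collagen and elastic fibre genes, 7 of 24 type I interferon genes and 6 of 32 matrix protease and inhibitor genes. So were 5 of 24 complement and 4 of 31 macrophage genes. Higher in A/J were 1 of the 50 and 2 of the 32, and none of the interferon, complement and macrophage genes. The 611 fell to 375 and 402 without the male and the female A/J array of 6 weeks and to 404 without the C3H/HeJ male array of 6 weeks.

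The strain difference itself was larger or smaller in control than in treated lung in 2 probe sets of 15084 (0.0133%), and 375 had an unadjusted p under 0.05. Oas3, a double-stranded RNA sensor of the interferon response, read 6.37 and 6.69 in A/J controls against 5.21 and 5.38 in C3H/HeJ controls (1.23, SE 0.20, adjusted p = 0.0041). In treated lung it ran from 6.69 to 7.32 in A/J and from 6.81 to 7.80 in C3H/HeJ (−0.36, SE 0.14, adjusted p = 0.18), so the ranges overlapped there. The change in the difference was 1.59 (SE 0.25, adjusted p = 0.0499). C57BL/6 controls read 6.71 and 6.34. In control lung Oas3 was the only call of 24 type I interferon genes, whose median was −0.06 there and −0.37 in treated lung. In treated lung 7 of the 24 were called higher in C3H/HeJ and none in A/J. Over all 9076 genes, 184 were called higher in C3H/HeJ there.

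The promoter of Oas3 is shown because Oas3 is an interferon-response gene and its difference was not the same in control and treated lung. The window is chr5:120777660-120777909 on the minus strand of GRCm38.p6, with the AANNGAAA core in capitals.
Oas3: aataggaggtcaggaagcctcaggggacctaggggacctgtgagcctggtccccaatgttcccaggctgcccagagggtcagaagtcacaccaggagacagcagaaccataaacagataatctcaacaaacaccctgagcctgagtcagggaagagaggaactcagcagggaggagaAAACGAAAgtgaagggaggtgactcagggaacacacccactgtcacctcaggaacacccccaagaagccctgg
It holds 1 such core, as 21.3% of all windows do. The match is a description of the reference sequence and was not measured here.

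The other call was an Ighm probe set, 1427756_x_at, of the immunoglobulin heavy chain, named after its values were seen. It read 5.55 and 5.76 in A/J and 4.80 and 5.48 in C3H/HeJ controls (0.52), and ran from 7.52 to 8.34 in treated A/J and from 4.69 to 5.32 in treated C3H/HeJ (2.93, SE 0.20, adjusted p = 6.7e-08). The change was −2.42 (SE 0.37, adjusted p = 0.0499). All control readings of this probe set and all treated C3H/HeJ readings lay below 5.87, the cut that the filter set on the mean over all arrays. Its mean of 6.04 passed that cut with the high treated A/J readings in it, the same readings that make the change. With the lower 50% of probe sets left out it was not tested. Of the 7 kept Ighm probe sets, the brightest, 1427351_s_at, stood the other way, at −0.63 in control and −1.0 (SE 0.28, adjusted p = 0.061) in treated lung. Neither the Oas3 nor this Ighm call of a changed difference stood when any 1 of the 4 control arrays was left out, with adjusted p of 0.320 and 0.607 without the A/J male array, 0.232 and 0.181 without the A/J female array, 0.559 and 0.171 without the C3H/HeJ male array, and 0.120 and 0.269 without the C3H/HeJ female array. The direction was kept in each.

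**Figure D5:**
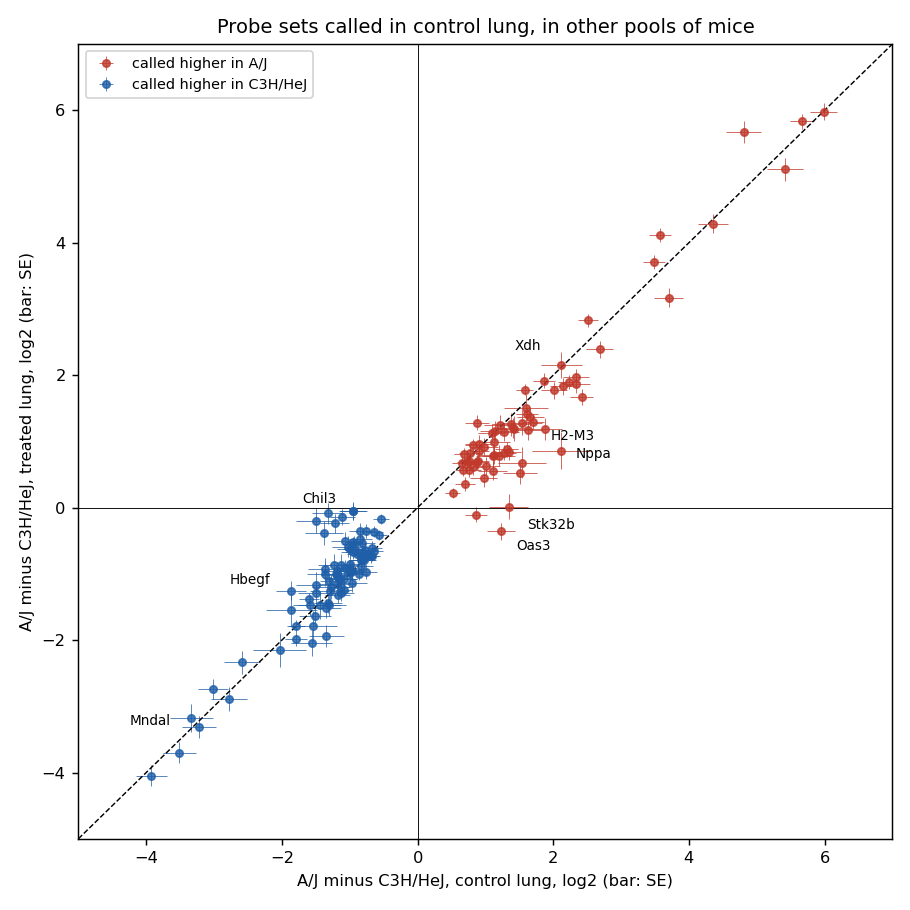
Strain difference, A/J minus C3H/HeJ in log2 units, of the 152 probe sets called in control lung: control lung (2 against 2 pools) on the horizontal axis and treated lung (6 against 4 other pools) on the vertical axis, with SE bars and a dashed line of equal difference. Of the points, 150 lie in the quadrants of equal sign, and Oas3 lies below 0 on the vertical axis.

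Some differences of control lung were small in treated lung without passing the test of the change. Both Lyve1 probe sets were near alike there (−0.06 and −0.24), and the changes were −0.89 (SE 0.23) and −0.98 (SE 0.26), with adjusted p = 0.9996 for each over all probe sets. Chil3 differed by −0.05 (SE 0.14) in treated lung, where A/J ran from 9.23 to 9.98 and C3H/HeJ from 9.57 to 9.91. Gimap6, a GTPase of lymphocytes named after its values were seen, differed by −1.11 (SE 0.19) in control and −0.14 (SE 0.12) in treated lung, with an adjusted p of 0.87 for the change. Nppa differed by 0.86 (SE 0.28, adjusted p = 0.11) in treated lung. In all, 20 of the 152 did not pass in treated lung, 2 of them with the opposite sign, Oas3 and 1 of 3 probe sets of the fatty acid-binding protein Fabp4.

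Beside the third strain, the calls were sorted by probe set, not by gene, so H2-D1 alone gave 7 of those higher in A/J. The matching shares over all probe sets were not counted. Of the 66 probe sets higher in A/J, C57BL/6 controls read nearer to A/J in 53, and in 30 C3H/HeJ lay at least 1 below C57BL/6. Of the 86 higher in C3H/HeJ, C57BL/6 read nearer to C3H/HeJ in 58, and in 31 A/J lay at least 1 below C57BL/6. Against C57BL/6, 478 probe sets passed for A/J (3.17%) and 377 for C3H/HeJ (2.5%). These comparisons share arrays with the main one, so they are set side by side only. The interferon-inducible gene Ifi202b read 6.03 and 6.18 in A/J, 6.25 and 5.84 in C3H/HeJ and 4.17 and 4.16, near the floor, in C57BL/6.

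Of the genes named by rule, 38 were called by their brightest probe set. The calls of Adamdec1, Arap3, Bpifb1, Bst1, H2-D1, H2-M3, Hbegf, Mndal, Muc5b, Nme7, Pdxdc1, Sspn, Stk25 and Xdh stood under each of the 15 or 16 alternative settings that could be run. The other 24 lost their call in 1 to 9 of them, and none of the 38 changed direction. In 9 of the 38 the size moved by over 1.5 times under some setting, in each with offset 64: Bst1 to −1.44 (and to −4.67 with offset 1), Mndal to −2.05, Rps4l to −1.25, Klhl42 to −0.83, Usf1 to −0.83, C920021L13Rik to 0.82, Smoc1 to 0.90, Ggcx to 0.80 and Oas3 to 0.69. Rps4l also moved to −1.26 without the A/J male array, where it did not pass (adjusted p = 0.306). Leaving out the A/J male array ended 16 of the 38 calls, the A/J female array 18, the C3H/HeJ male array 17 and the C3H/HeJ female array 16. Those of C920021L13Rik, Chil3, Deptor, Gas1, Lin7c, Lyve1, Nppa and Usf1 ended in each of these 4 fits.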

How the data were processed

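The values are 1 deposited intensity per probe set and array, 21 arrays in all. The sources used here do not say how the authors summarised and scaled them. Per the labels, RNA of 3 to 5 mice was pooled for each array.

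Of 22626 probe sets besides controls, 20380 carried 1 gene symbol, 691 several and 1555 none, and 20379 probe sets had a symbol that matched RefSeq (GRCm38.p6). The intensities were quantile-normalized over the 21 arrays, 16 was added and log2 taken. The 33.3% with the lowest mean were dropped, and 15084 stayed. Strain differences were fitted with limma 3.58.1 in R 4.3.3 on all arrays, with group and sex as terms (10 residual degrees of freedom), and p-values were adjusted over all probe sets kept. Differences between a gene's brightest and other probe sets were fitted with the same terms, and p-values were adjusted over all pairs. In the probe set fits the estimate of spread was allowed to follow the level (limma's trend option), and in the pair fits it was not. The procedure was tested on simulated data.

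Genes named are the 12 with the largest called difference in each direction, those with all probe sets called one way (up to 8 per direction), the 12 with the largest called disagreement, up to 4 of smallest p per list, and fixed genes. Actc1, Ager, Bpifa1, Ccdc91, Cd68, Cd99, Col4a6, Cxcl17, Cyp2f2, Dusp3, Gimap6, Ighm, Lox, Lsm12, Meox1, Myh6, Pecam1, Per3, Tff2 and Tnni3 fall outside this rule and were named after their values were seen. The members and lists were chosen with earlier results of these data known.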

Additional observations from a re-analysis of the deposited data

Results flagged for a closer look

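The strain difference, A/J minus C3H/HeJ, changed between control and treated lung for Oas3 by 1.59 and for the Ighm probe set 1427756_x_at by −2.42, both control minus treated on the log2 scale, by the limma test of the change (adjusted p = 0.0499 for each). Both sit at the threshold. The Ighm probe set passed the filter on dim probe sets with its high treated A/J readings in the mean.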

How the results depend on the processing

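None of the 38 named called genes changed direction under the alternatives run; direction was not followed for the other calls. The 152 calls in control lung became 68 on the deposited values, 299 with limma array weights, 98 with a difference of at least 1 required, 87 with 1 probe set per gene, and 68 to 75 with 1 control array left out. The 19 called pairs became 50 over every pair of a gene's probe sets, 8 without probe sets that may cross-hybridise, 11 in the 4 control arrays alone, 42 with array weights, and 11 to 13 with 1 control array left out. The 611 calls in treated lung became 241 on the deposited values and 375 to 741 with 1 treated array left out. The 2 changed differences became 0 on the deposited values, with median scaling, with the lower 50% left out and without the C3H/HeJ female 6 week array, 1 with offset 1 (Oas3) and with offset 64 (Ighm), 1 without the filter, where it was neither of these, and 0 to 1 with 1 control array left out, again neither. Of 38 named called genes, 14 kept their call in every alternative. The cause of these shifts was not tested, apart from the fewer features or arrays that an alternative leaves. No paired analysis was possible because the labels number no replicates and the pools hold different mice. Sex is a term of the model, and without it 158 probe sets were called. With 2 pools per strain, the number of arrays limits the precision, and levels near 4 have no signal to rank.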

Other observations

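Of the 23 called probe sets without a single gene symbol, 1455904_at read 9.31 on both A/J arrays, 6.64 and 6.62 in C3H/HeJ and 6.65 and 6.56 in C57BL/6, a difference of 2.68, so that only A/J was high among the 3 strains. Others with large differences were 1451593_at (2.33), 1431008_at (2.23) and 1418536_at (2.15) on the A/J side and 1453752_at (−1.86) and 1455871_s_at (−1.79) on the C3H/HeJ side.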
